A study of Mus musculus with 2 samples.

Results

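Genes that write or erase methyl groups on histone lysines were examined in ES-E14, a mouse embryonic stem cell line from a male embryo of the 129/Ola strain. The 32 genes were taken by symbol from a list of 14 methyltransferases, 14 demethylases and 4 shared subunits of the H3K4 methyltransferase complexes, and were grouped by the residue they act on. All 32 had a row among the 43346 mouse genes of the deposited tables. The study held total RNA-seq of 1 group, 2 libraries labelled biological replicates 1 and 2, with no treatment, genotype or time contrast. Both labels cite the same source sample, so the spread between the libraries may be technical. With 1 group there was no comparison between conditions and no test.

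Methylation of histone lysines is read by the cell as a mark of gene state. Methylated H3K4 marks promoters and enhancers in use, H3K36 and H3K79 methylation follow transcription through gene bodies, and H3K9 and H3K27 methylation and the higher states of H4K20 methylation are associated with silent chromatin. Each mark is set by methyltransferases, most with a SET domain, and most are removed by flavin-dependent (Kdm1) or Jumonji (Kdm2 to Kdm7) demethylases, and embryonic stem cells are known to depend on several of these enzymes to hold or leave the pluripotent state.

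Gene-level values are TPM, a share of all transcripts in a library's table that is corrected for transcript length. The libraries held 43163300 and 45573512 expected counts on genes in replicates 1 and 2, and 26 of the 32 genes had 1000 or more counts in both. Protein-coding genes took 19.4% of TPM in replicate 1 and 23.8% in replicate 2. All 8 embryonic stem cell markers, among them Pou5f1 at 162 and 201 TPM and Sox2 at 32.0 and 39.5 TPM in replicates 1 and 2, were above 1 TPM in both libraries. Their summed level was 1274 and 1225 TPM, with 4 higher in replicate 1 and 4 higher in replicate 2. Of 10 fibroblast markers, 6 were above 1 TPM in both, and Pdgfrb, S100a4, Dcn and Lum were not, with Lum at 0 in both. The 10 summed to 138 and 459 TPM in replicates 1 and 2. Most of that sum was Vim, at 88.9 and 302 TPM, and Acta2, at 33.0 and 100 TPM. Of 6 primitive endoderm markers only Lama1, at 21.8 and 25.5 TPM, was above 1 TPM in both libraries, and the other 5 summed to 1.28 and 6.55 TPM. Of neuroectoderm markers 2 of 4 were above 1 TPM in both, with a summed level of 19.1 and 35.1 TPM. In bulk RNA, fewer cells of a type and less RNA per cell cannot be told apart.

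The windows before the transcription starts show what most of these promoters have in common, and 7 of them are printed. They cover starts of the same gene with and without assigned output, a pair of used starts, and that of the 1 almost silent member. Each runs 5′ to 3′ over the 250 bases before a RefSeq start (GRCm38.p6), and capitals mark the CG dinucleotide, which reads the same on both strands. Windows were given for 22 of the 32 genes, 31 in all.
Dpy30-201, chr17:74316395-74316644, minus strand: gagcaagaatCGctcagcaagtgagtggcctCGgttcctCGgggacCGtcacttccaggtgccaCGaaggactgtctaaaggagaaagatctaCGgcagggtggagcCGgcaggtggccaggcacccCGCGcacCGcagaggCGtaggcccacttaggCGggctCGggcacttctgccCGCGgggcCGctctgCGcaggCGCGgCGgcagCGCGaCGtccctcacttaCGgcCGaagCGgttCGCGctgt
Dpy30-202, chr17:74323945-74324194, minus strand: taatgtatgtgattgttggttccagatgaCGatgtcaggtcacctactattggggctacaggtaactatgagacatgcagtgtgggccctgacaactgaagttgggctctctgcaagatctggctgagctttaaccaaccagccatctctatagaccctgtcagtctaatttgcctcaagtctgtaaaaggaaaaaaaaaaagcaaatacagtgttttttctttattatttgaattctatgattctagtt
Kdm4c-201, chr4:74251629-74251878, plus strand: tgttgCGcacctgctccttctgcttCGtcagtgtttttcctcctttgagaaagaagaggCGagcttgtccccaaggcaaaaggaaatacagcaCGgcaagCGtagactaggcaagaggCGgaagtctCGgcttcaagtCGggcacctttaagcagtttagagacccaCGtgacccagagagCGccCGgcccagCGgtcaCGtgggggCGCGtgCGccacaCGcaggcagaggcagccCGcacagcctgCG
Kdm4c-202, chr4:74242247-74242496, plus strand: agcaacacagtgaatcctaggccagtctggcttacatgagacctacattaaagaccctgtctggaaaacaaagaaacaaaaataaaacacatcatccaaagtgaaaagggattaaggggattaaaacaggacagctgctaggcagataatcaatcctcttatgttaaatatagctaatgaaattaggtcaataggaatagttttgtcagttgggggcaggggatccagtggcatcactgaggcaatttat
Kmt5a-201, chr5:124439680-124439929, plus strand: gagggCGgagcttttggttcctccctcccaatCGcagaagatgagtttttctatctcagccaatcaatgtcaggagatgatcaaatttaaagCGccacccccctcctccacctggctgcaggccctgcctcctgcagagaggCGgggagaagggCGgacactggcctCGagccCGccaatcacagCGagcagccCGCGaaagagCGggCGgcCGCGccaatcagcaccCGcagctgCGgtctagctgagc
Kmt5a-202, chr5:124445249-124445498, plus strand: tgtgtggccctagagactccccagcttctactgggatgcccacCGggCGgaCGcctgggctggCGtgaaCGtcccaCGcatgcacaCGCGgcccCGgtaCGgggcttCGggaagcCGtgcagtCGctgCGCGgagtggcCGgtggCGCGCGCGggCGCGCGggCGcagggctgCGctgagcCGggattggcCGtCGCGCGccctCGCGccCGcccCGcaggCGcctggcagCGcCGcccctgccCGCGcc
Kdm4d-201, chr9:14500483-14500732, minus strand: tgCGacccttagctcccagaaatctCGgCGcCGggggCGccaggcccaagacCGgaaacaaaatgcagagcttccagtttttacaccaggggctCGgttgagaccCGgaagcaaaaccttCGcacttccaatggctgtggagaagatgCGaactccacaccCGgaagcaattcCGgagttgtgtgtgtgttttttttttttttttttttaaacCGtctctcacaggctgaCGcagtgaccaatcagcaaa

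Member windows were CG-rich, with a median of 20 CG dinucleotides, against 6 over all 32851 windows of the genome table, and at least 1 CG was found in 92.1% of those. Kdm7a had the highest number, 56. Only 3 member windows held 5 or fewer CG, a number met by 49.6% of all windows. None of these 3 lay at a start to which the authors' main estimate assigned output. The Dpy30-202 window held 1 CG and the Kdm4c-202 window 0, and both transcripts were assigned 0% of their gene's output in either library. By posterior mean, Dpy30-202 held 1.94% and 1.57% in replicates 1 and 2, with upper TPM bounds of 1.21 in both. Kdm4c-202 held 0.67% in both. The remaining window, at Kdm3a with 0 CG, lay 23547 bases from the nearest annotated start of that gene. The used start of Dpy30 had 28 CG in its window and was assigned 100% of the gene's output in both libraries. That of Kdm4c had 19 CG and 80.2% and 86.7% of the output in replicates 1 and 2. Kmt5a drew on more than 1 start: Kmt5a-201, with 16 CG, took 35.3% and 42.6% of its output in replicates 1 and 2, and Kmt5a-202, with 39 CG, took 19.62% and 19.99%. The window of Kdm4d held 14 CG, more than 70.6% of all windows have, although the gene was close to silent. These counts of letters describe the windows, and no methylation was measured.

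Of the 32 genes, 31 were detected, meaning 1 TPM or more in both libraries, against 46.3% of the 21474 protein-coding genes. Because the members were chosen with earlier results of these data known, this contrast does not speak for the gene families as a whole. Of 36 further histone lysine methylation genes, 27 were detected. The median level of the detected members was 9.60 TPM, against 6.36 TPM for all detected protein-coding genes. Most were of middle abundance: 6 averaged 20 TPM or more, 18 lay from 5 to 20 TPM and 8 below 5 TPM. Their median effective length was 3946 bases, against 2124 bases for detected protein-coding genes, so counts are high for the TPM. In the order of mean TPM, 8 of the 31 neighbouring pairs were separate, with both libraries of one gene above both of the next, and the other 23 overlapped.

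**Figure D1:**
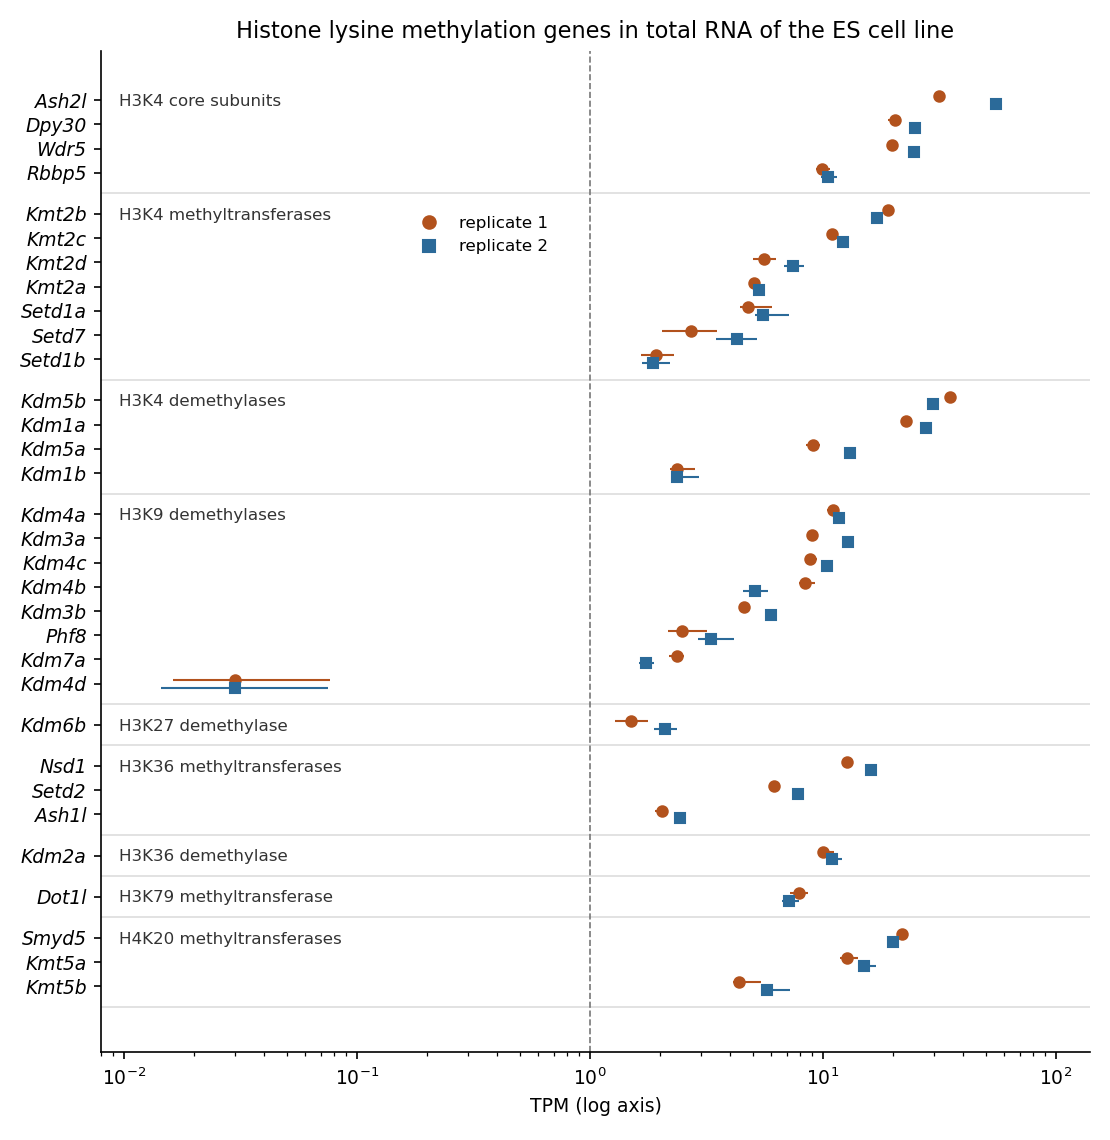
Level of each of the 32 genes in TPM (log axis) by residue group, with replicate 1 as circles and replicate 2 as squares, and bars for the authors' interval bounds; the dashed line marks 1 TPM. Ash2l, Kdm5b, Kdm1a, Dpy30 and Wdr5 have the highest levels, and Kdm4d is the single gene below the line.

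By residue, H3K4 had the largest summed TPM within the list, which has 15 of its 32 genes on H3K4 and no methyltransferase of H3K9 or H3K27. These 15 included the 5 with the highest mean level, Ash2l, Kdm5b, Kdm1a, Dpy30 and Wdr5. The 4 core subunits, which join every enzyme of the KMT2 and SETD1 families, summed to 81.6 and 115 TPM in replicates 1 and 2, which was 25.0% and 30.3% of the TPM of all members. Ash2l (chr8:25815996-25847694, minus strand, GRCm38), the subunit that with RBBP5 stimulates the catalytic SET domain, was at 31.7 and 55.3 TPM in replicates 1 and 2. Dpy30, the small subunit bound by ASH2L, was at 20.3 and 25.0 TPM, and Wdr5, which holds the catalytic subunit, was at 19.8 and 24.6 TPM. Rbbp5 was the lowest of the 4, at 9.89 and 10.5 TPM, and did not overlap the other 3. Summed over all transcripts, Ash2l was above Rbbp5 in both libraries, but over coding transcripts with 90% or more of the longest coding length it was below in both, at 2.05 and 3.56 TPM for Ash2l and 4.11 and 3.96 TPM for Rbbp5.

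The 7 H3K4 methyltransferases summed to 50.1 and 53.8 TPM in replicates 1 and 2, below the core subunits in both. Kmt2b, which sets H3K4 methylation at many CpG-rich promoters of developmental genes, was the highest, at 19.0 and 17.1 TPM. Its paralog Kmt2a, the gene rearranged in human mixed-lineage leukaemia, was at 5.09 and 5.34 TPM. Kmt2c and Kmt2d, whose products methylate H3K4 at enhancers, were at 10.99 and 12.22 TPM and at 5.61 and 7.46 TPM. Setd1a, whose product is needed for growth of mouse embryonic stem cells, was at 4.79 and 5.56 TPM, and Setd1b at 1.93 and 1.87 TPM, with no overlap between them. GENCODE M21 also places a protein-coding gene, Gm49388, on the same strand over 51.8% of the exonic bases of Setd1a; it has no row in the tables, so the Setd1a value cannot be split from it. Setd7, a monomethyltransferase that also acts on many other proteins, was at 2.71 and 4.28 TPM.

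Among the 4 H3K4 demethylases, Kdm5b was the highest, at 35.0 and 29.8 TPM in replicates 1 and 2. KDM5B and KDM5A remove trimethyl and dimethyl groups, and Kdm5a was at 9.07 and 13.1 TPM. Kdm1a (LSD1), the flavin-dependent enzyme of the CoREST complex, was at 22.8 and 27.9 TPM. Kdm1b (LSD2), known for setting up imprints in mouse oocytes, was at 2.37 and 2.36 TPM, so Kdm1a was above Kdm1b and Kdm5b above Kdm5a in both libraries. The exons of Dek, at 18.8 and 31.3 TPM in replicates 1 and 2, overlap 9.19% of the exonic bases of Kdm1b on the opposite strand, and reads of such a pair cannot be told apart where counting by strand is not stated. The demethylases together held 69.3 and 73.1 TPM, more than the methyltransferases of the same residue in both libraries.

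The 8 H3K9 demethylases summed to 46.8 and 51.1 TPM in replicates 1 and 2. Kdm4a was at 11.1 and 11.7 TPM and Kdm4c at 8.80 and 10.4 TPM, enzymes that act on trimethylated H3K9 and on H3K36. Kdm3a, an enzyme for monomethyl and dimethyl H3K9, was at 8.96 and 12.8 TPM, and its paralog Kdm3b at 4.60 and 6.00 TPM. Kdm4b was at 8.43 and 5.10 TPM and was the member whose replicate 1 value stood furthest above replicate 2 on the log2(TPM + 1) scale. Phf8, the X-linked enzyme for H3K9 and H4K20, was at 2.50 and 3.31 TPM and Kdm7a, for H3K9 and H3K27, at 2.36 and 1.75 TPM. Kdm4d (chr9), a relative without the PHD and Tudor domains that is known for expression in mouse testis, was at 0.03 TPM in both libraries, on 6 and 5 counts, with authors' intervals that end at 0.077 and 0.075 TPM. It was the only member below 1 TPM.

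Within the list, the remaining residues had fewer genes. Further enzymes outside the list were also detected, among them Kdm6a, Nsd2, Nsd3, Kdm2b and Kmt5c. The levels of the members therefore do not cover all enzymes of these residues. Kdm2b was at 13.15 and 17.15 TPM and Kmt5c at 23.28 and 15.85 TPM in replicates 1 and 2. Kdm6b, a demethylase of H3K27, had 1.5 and 2.1 TPM in replicates 1 and 2, the lowest of the detected members by mean. Outside the list, Kdm6a was above Kdm6b in both libraries, and so was the Y-linked Uty, at 6.61 and 7.71 TPM. For H3K36, Nsd1 (dimethylation) was at 12.7 and 16.1 TPM, Setd2 (trimethylation, carried along with RNA polymerase II) at 6.19 and 7.87 TPM, and Ash1l at 2.05 and 2.43 TPM, and no 2 of the 3 overlapped. Kdm2a, an H3K36 demethylase with a domain that binds unmethylated CG, was at 10.1 and 10.9 TPM. Dot1l, the H3K79 methyltransferase, which has no SET domain, was at 7.93 and 7.19 TPM. For H4K20, Smyd5, whose product was described to set the trimethyl state of this residue, was at 21.9 and 20.1 TPM, Kmt5a (monomethylation) at 12.7 and 15.1 TPM, and Kmt5b (further methylation) at 4.35 and 5.77 TPM. Kmt5a was above Kmt5b and below Smyd5 in both libraries.

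Paralogs and other genes of the same residue were compared by the log2 ratio of (TPM + 1) within a library, in 16 pairs. The first gene of the pair was higher in both libraries in 10. That count depends on which gene was named first, and it includes the 3 pairs with Kdm4d. Kdm1a exceeded Kdm1b by 2.96 ± 0.20 on the log2 scale (SD, n = 2), a 10.7-fold ratio of mean TPM, the widest gap outside the pairs with Kdm4d. Kdm5a stood below Kdm5b by a log2 ratio of −1.48 ± 0.50, Kmt2a below Kmt2b by −1.61 ± 0.14, and Ash1l below Nsd1 by −2.24 ± 0.11. Kdm3a over Kdm3b was 0.91 ± 0.11, Setd1a over Setd1b 1.09 ± 0.15, and Kmt5a over Kmt5b 1.30 ± 0.07. Setd2 over Nsd1 was −0.94 ± 0.01. The closest pairs were Kdm4a over Kdm4c, at 0.30 in replicate 1 and 0.16 in replicate 2, Kdm4b over Kdm4c, at −0.06 and −0.90, and Kdm7a over Phf8, at −0.06 and −0.65. In the last 2 pairs the ratio of replicate 1 was close to 0, so the order rests on replicate 2. Kdm4a over Kdm4b was 0.36 and 1.06, also far apart between the libraries. The 3 ratios to Kdm4d were between 2.88 and 3.59, and are held down by the added 1 TPM.

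**Figure D2:**
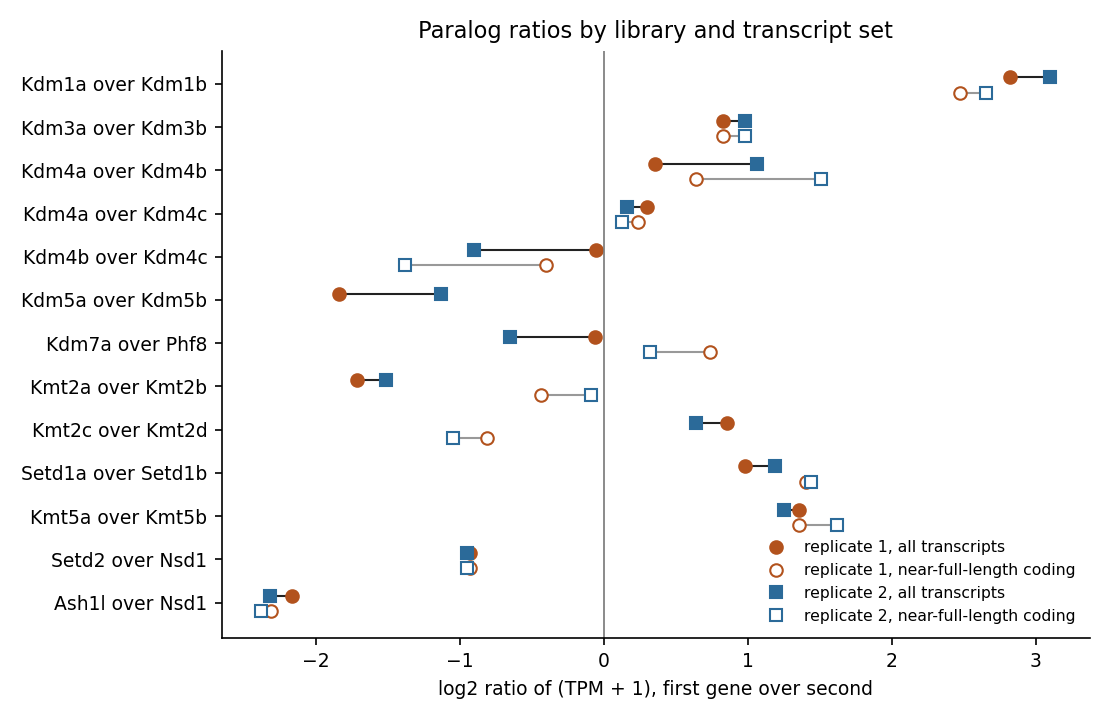
Log2 ratio of (TPM + 1), first gene over second, for the 13 pairs without Kdm4d; filled symbols use all transcripts of a gene and open symbols only coding transcripts with 90% or more of the gene's longest coding length, with replicate 1 as circles and replicate 2 as squares. Kmt2c over Kmt2d and Kdm7a over Phf8 cross 0 between the filled and the open symbols, and Kdm5a over Kdm5b has no open symbol.

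A gene's TPM sums all of its annotated transcripts, including short fragments of the coding sequence, retained introns and non-coding forms. The members were annotated with 188 transcripts in the tables, 18 genes had more than 5, and 187 were matched to GENCODE M21. To see how much of each level came from transcripts that could encode most of the protein, the coding transcripts with 90% or more of the gene's longest coding length were summed (near-full-length). Over 31 genes they made up a median of 70.3% of the TPM in replicate 1 and 83.1% in replicate 2, but 93.8% and 96.3% of the expected counts, since a short transcript gains much TPM from few counts. For Dot1l the near-full-length share was 42.9% and 50.3% of TPM, and 84.1% and 85.7% of counts. For Kdm2a it was 39.4% and 43.7% of TPM, and 81.2% and 83.9% of counts. Kdm5a was left out because its longest transcript in the tables (10969 bases, 27.2% and 26.0% of the output) had no match and its coding length is therefore not known here.

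**Figure D3:**
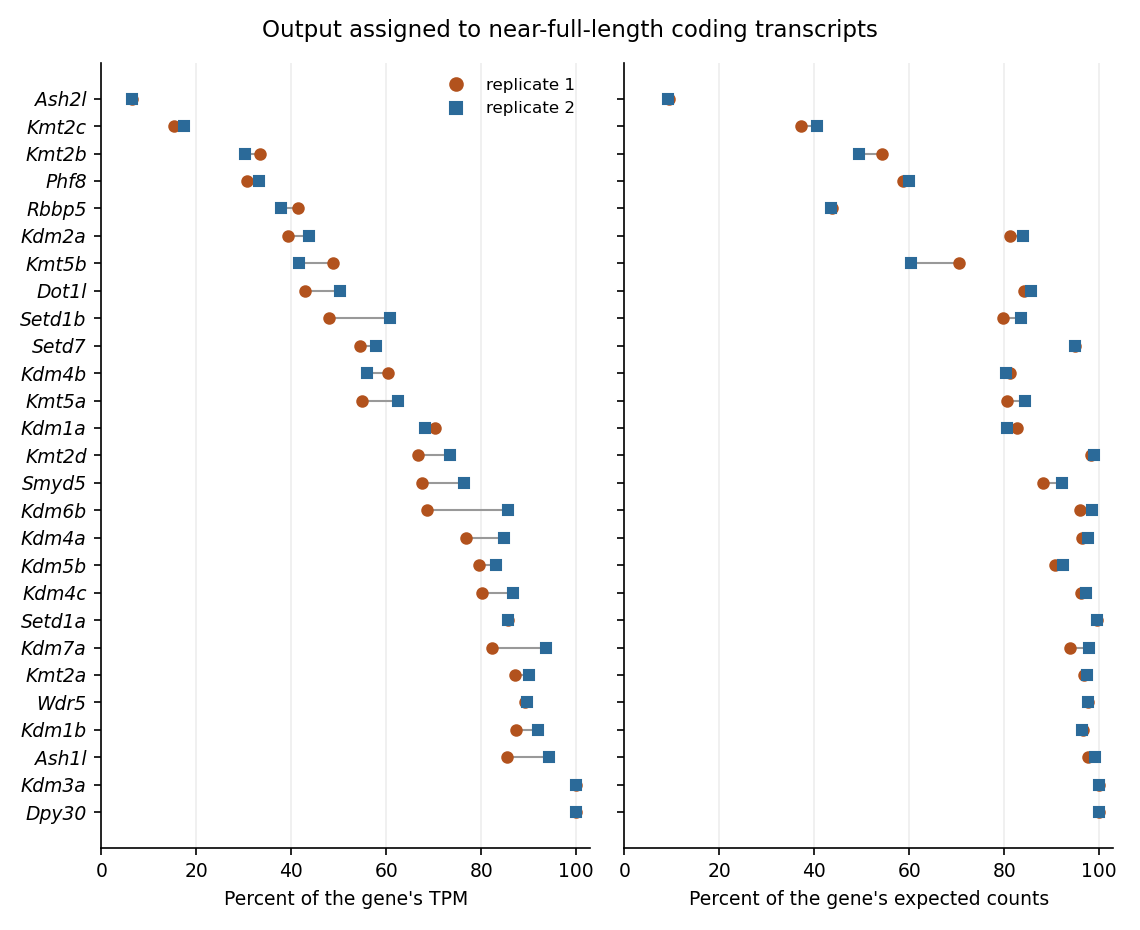
Percent of a gene's TPM (left) and of its expected counts (right) that was assigned to near-full-length coding transcripts, for the 27 detected genes with several transcripts and a known longest coding length, with replicate 1 as circles and replicate 2 as squares. Ash2l and Kmt2c have the lowest TPM shares, and for most genes the share of counts lies to the right of the share of TPM.

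Besides Ash2l and Rbbp5, the order of 2 paralog pairs depended on this choice. Kmt2c was above Kmt2d by 0.75 on the log2 scale over all transcripts, and below it, at −0.93, over near-full-length ones. The transcript that encodes the whole KMT2C protein, Kmt2c-201 with 14712 coding bases, was at 1.69 and 2.14 TPM in replicates 1 and 2. This was 15.4% and 17.5% of the gene's TPM, and 37.3% and 40.6% of its expected counts. The near-full-length transcripts of Kmt2d were at 3.73 and 5.49 TPM. Kdm7a over Phf8 was 0.53 with near-full-length transcripts, at 1.95 and 1.63 TPM for Kdm7a and 0.77 and 1.10 TPM for Phf8. For Kmt2a over Kmt2b the order held but the gap shrank to −0.26, with 4.43 and 4.81 TPM for Kmt2a and 6.36 and 5.17 TPM for Kmt2b. A limit of 50% of the coding length brought this last ratio back to −1.26, because Kmt2b-206, the leading Kmt2b transcript at 35.6% and 39.4% of the gene, is annotated with 6041 of 8163 coding bases. Ash2l was a similar case: Ash2l-204, with 1602 coding bases, took 66.6% and 76.5% of the output, and the only near-full-length transcript, with 1869, took 6.48% and 6.44%.

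Transcripts that keep an intron were annotated for 17 of the 32 genes. Setd7 had the largest share of TPM in them, 45.6% in replicate 1 and 42.2% in replicate 2, most of it in Setd7-204, a model of 423 bases with 22.2 and 29.1 expected counts. The share for Dot1l was 40.0% and 31.6%, and for Kmt5a 32.3% and 25.1%. The retained-intron share was lower in replicate 2 for 12 of the 17 and higher for 5, and protein-coding genes as a whole took more of the TPM in replicate 2. The near-full-length share was higher in replicate 2 for 20 genes, lower for 6 and equal for 5. Kdm4d, on 6 and 5 counts, was among the 20. Neither comparison was made over all protein-coding genes, so these counts cannot be read as particular to the members.

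The leading transcript, the one with the largest share of the gene's output, was the same in both libraries for 21 of 28 detected members with several transcripts, against 86.0% of detected protein-coding genes with several transcripts, and it differed for 7. It took under 50% of the output on average in 12 of the 28, against 35.4%. For Ash1l the 2 leading transcripts have the same 8874 coding bases and differ at the first exon: Ash1l-202 took 59.9% in replicate 1 and 43.2% in replicate 2, and Ash1l-201 25.3% and 51.1%. For Kdm4a they also share a coding length, 3192 bases, with Kdm4a-204 at 31.2% and 47.7% and Kdm4a-202 at 36.8% and 25.4%. In Kdm2a a fragment of 876 coding bases, Kdm2a-212, led in replicate 1 on 248 counts and the full coding transcript Kdm2a-202 led in replicate 2 on 2016 counts. The other genes were Kmt2c, Kmt5b, Phf8 and Rbbp5, with leading transcripts under 32% in each library. Kdm5a was the only member whose leading transcript was not protein-coding: Kdm5a-206, annotated as a target of nonsense-mediated decay, took 35.5% and 27.8%. By expected counts the unmatched Kdm5a transcript of 10969 bases held more, 2067 and 2724 in replicates 1 and 2, against 878 and 943 for Kdm5a-206.

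Kdm1a and Kmt2a each had coding transcripts that differ, within the span they share, by a short stretch, printed here because it separates forms of the enzyme. The Kdm1a stretch is a whole exon of 60 bases (chr4:136582040-136582099, minus strand, GRCm38), and the Kmt2a stretch lengthens an exon by 9 bases at its 3′ end (chr9:44833898-44833906, minus strand). Capitals mark the stretch, with 25 bases of the transcript on each side in lower case, from the GENCODE M21 transcript sequences.
Kdm1a-202: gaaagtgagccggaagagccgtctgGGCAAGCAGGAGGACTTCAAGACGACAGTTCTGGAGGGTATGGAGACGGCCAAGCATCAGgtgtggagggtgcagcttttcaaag
Kdm1a-203: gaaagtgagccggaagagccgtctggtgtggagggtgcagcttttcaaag
Kmt2a-202: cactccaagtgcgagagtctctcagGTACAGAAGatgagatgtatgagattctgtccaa
Kmt2a-201: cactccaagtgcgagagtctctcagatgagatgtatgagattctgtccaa
Both lengths are whole numbers of codons. The form of Kdm1a with the exon, Kdm1a-202, was at 8.26 and 13.5 TPM in replicates 1 and 2, and Kdm1a-203, without it, at 7.77 and 5.46 TPM. Counting every Kdm1a transcript that spans the site, 41.6% of the TPM in replicate 1 and 55.0% in replicate 2 held the exon, so forms with and without it were both abundant. The 9 bases of Kmt2a were in 23.1% and 16.5% of the TPM that spans them, of which 0.59 and 0.47 TPM belonged to Kmt2a-205, annotated as a target of nonsense-mediated decay. Kmt2a-202, the coding form with the stretch, was at 0.57 and 0.40 TPM in replicates 1 and 2, and its interval in replicate 2 ran down to 0.0012 TPM. These shares come from the authors' quantification of whole transcripts, not from reads counted on the stretches.

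Between the libraries, no member was 2-fold apart in either direction on the log2(TPM + 1) scale, replicate 1 minus replicate 2. Among the 11436 genes that averaged at least 1 TPM, 0.866% were 2-fold higher in replicate 1 and 3.24% were 2-fold lower, and 3.12% of protein-coding genes were apart in either direction. The median difference of the members was −0.20, against −0.23 for detected protein-coding genes. By sign, 8 members were higher in replicate 1, 23 were lower and Kdm4d was equal, and 71.7% of detected protein-coding genes were likewise lower in replicate 1. When the libraries were scaled by trimmed mean of M-values (TMM) on expected counts, the members' median was 0.01 and that of protein-coding genes −0.01, with 17 members higher in replicate 1 and 15 lower. Between these scales 8 members changed sign, all from lower to higher in replicate 1, and 23 kept theirs.

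Ash2l and Kdm4b stood at the ends. Ash2l was lower in replicate 1 by −0.79 in TPM and by −0.54 after TMM scaling, on 4943 counts in replicate 1 and 8495 in replicate 2, and it had the lowest difference of all members under each of 8 scalings. Kdm4b was higher in replicate 1 by 0.63 in TPM and by 0.96 after TMM scaling, on 2141 and 1160 counts, and it had the highest difference under 7 of the 8, the exception being the adjustment for GC content, where Kdm7a was highest. Beside these differences, 5 of the 10 fibroblast markers were 2-fold lower in replicate 1, among them Col1a1 at 7.21 and 28.8 TPM in replicates 1 and 2 and Vim at 88.9 and 302 TPM. By sign, 8 of the 10 were lower in replicate 1, and 1, Thy1, was higher, at 2.27 and 1.62 TPM. Among primitive endoderm markers Dab2 was also 2-fold lower in replicate 1, at 0.43 and 2.77 TPM in replicates 1 and 2. The part of these markers in the differences of Ash2l, Kdm4b or any other member was not tested.

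**Figure D4:**
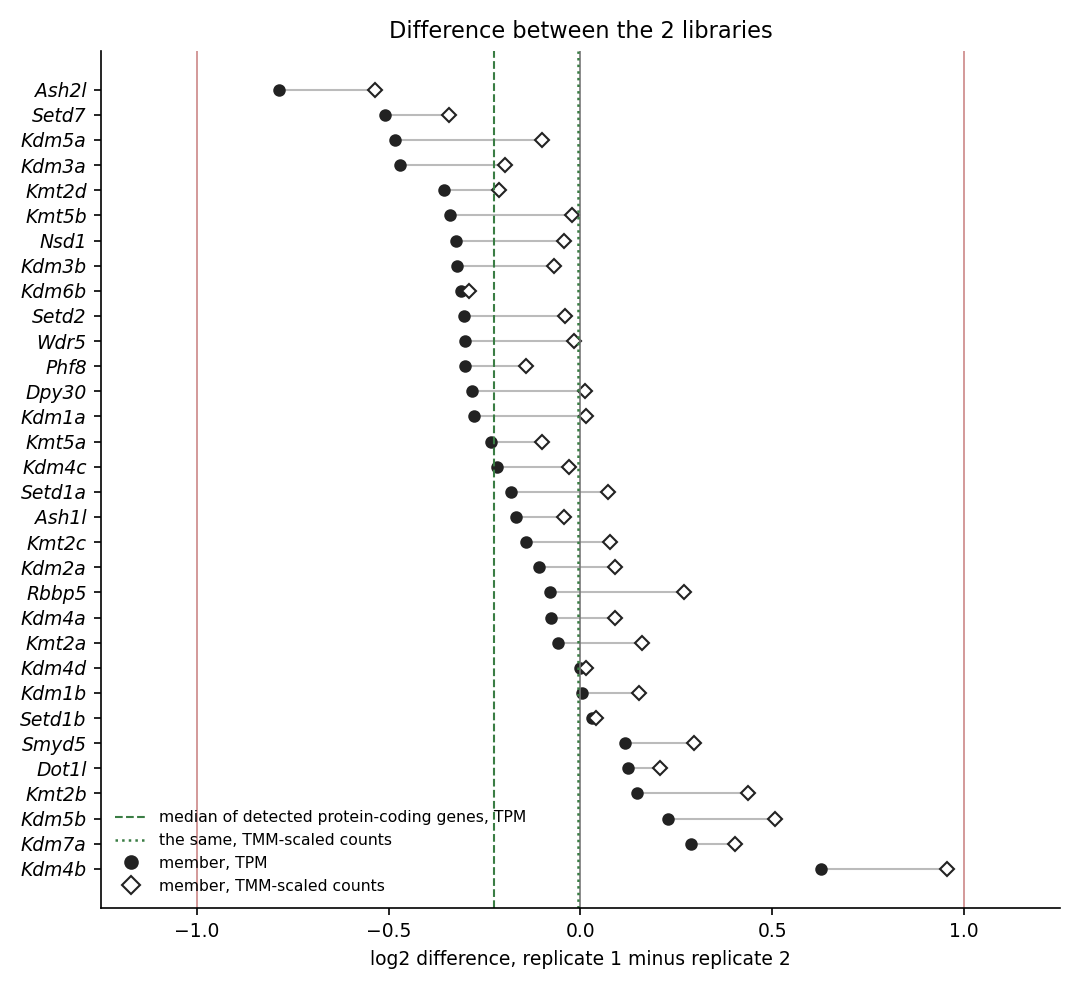
Log2 difference, replicate 1 minus replicate 2, for each of the 32 genes on the TPM scale (filled circles) and on TMM-scaled counts (open diamonds); dashed and dotted green lines give the medians of detected protein-coding genes on these scales, −0.23 and −0.01, and red lines mark 2-fold. With 1 added to each value before the log, all members lie inside the red lines on both scales, with Ash2l lowest and Kdm4b highest.

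Other genes of the same pathways were expressed alongside. Of 36 further histone lysine methylation genes 27 were detected, with a median of 5.38 TPM and no gene 2-fold apart between the libraries. The highest were Ehmt2, an H3K9 methyltransferase, at 28.2 and 28.3 TPM in replicates 1 and 2, and Kdm5c, another H3K4 demethylase of the Kdm5 family, at 28.3 and 28.1 TPM, so Kdm5c stood with Kdm5b rather than with Kdm5a. The 9 below 1 TPM in a library were Kdm8, Smyd1, Phf2, Setmar, Prdm16, Prdm9, Mecom, Hr and Kdm5d, and the lowest was the Y-linked Kdm5d, at 0.04 and 0.51 TPM.

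Partners of the H3K4 complexes were more abundant as a list, with 17 of 18 COMPASS and CoREST genes detected and a median of 13.0 TPM over all 18. Rcor2, a scaffold that ties KDM1A to the histone deacetylases, was the highest at 37.5 and 38.7 TPM in replicates 1 and 2, followed by the deacetylase Hdac1 at 20.2 and 23.1 TPM, and Rcor3 was the lowest at 0.79 and 0.90 TPM. Of 14 genes for DOT1L partners and readers of H3K36 or H4K20 methylation 12 were detected, with a median of 8.54 TPM over all 14. Morf4l1, whose product binds methylated H3K36, led at 30.8 and 53.9 TPM, followed by Mllt6 at 28.0 and 26.9 TPM, and Phf19 and L3mbtl1 were below 1 TPM in both libraries. L3mbtl1, a reader of H4K20 methylation, was the lowest at 0.45 and 0.26 TPM.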

How the data were processed

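Total RNA-seq of ES-E14 gave 2 libraries of 1 group. The deposited text file names mm10, annotation M4 and quantification from alignments to the transcriptome, by tools not given in the sources used here. Per the file headers, the deposited tables hold expected counts, TPM, FPKM, posterior mean TPM and effective lengths, the authors' interval bounds on TPM (used as signal values, level not given in the sources used here) and each transcript's percent of its gene's output. Counts per library were 43163300 and 45573512 over 43346 genes; 26248 rows named by a number alone and 97 others were left out of gene statistics. Symbols, biotypes and coding lengths came from GENCODE M21 on GRCm38, the assembly of mm10, and promoter windows from RefSeq.

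Members were matched by symbol and all were named. Of the further methylation genes, the partners and the readers, the 2 highest, the lowest and those under 1 TPM in a library were named. Marker genes, and a few further methylation genes set beside members, were named outside this rule. Members and lists were chosen with earlier results of these data known. Detection was 1 TPM or more in both libraries, and differences are log2(TPM + 1), which understates low genes. Expected counts were rounded for TMM (edgeR 4.0.16) and DESeq2 1.42.0 size factors in R 4.3.3; no count test was run. Other steps used Python 3.11.15 and pandas 2.3.3. The TMM and DESeq2 scalings were tried on simulated counts with as many genes raised as lowered. The real libraries do not share that balance, so the trial does not cover their uneven shift. Counts of the libraries differed by more than sampling noise (chi-square over degrees of freedom of 305 for 19063 genes), so both were kept. Alternatives were other TPM limits, scalings, pseudocounts, a GC adjustment, each library alone and transcript subsets.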

Additional observations from a re-analysis of the deposited data

How the results depend on the processing

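No paired analysis was possible because the series holds 1 group. Detection gave 31 members under limits of 0.5 and 1 TPM, on rescaled TPM, posterior mean TPM and FPKM and in each library alone, and 21 under a limit of 5 TPM. With 1 added before the log, no scaling put a member 2-fold apart, and neither did a pseudocount of 0.1 on TPM. Kdm4b came closest, at 0.99 with rescaled TPM and 0.96 with TMM scaling. The added 1 makes such differences smaller, and a smaller pseudocount was not tried on those scalings. The median difference between the libraries, −0.20 in TPM, was 0.0444 with TPM rescaled to protein-coding genes, −0.0844 with FPKM, 0.0121 with TMM-scaled counts, −0.0106 with DESeq2 size factors and 0.0414 after the GC adjustment, so its sign depended on the scaling. Each of the 16 pairs kept its direction with rescaled TPM, posterior mean TPM, FPKM and a pseudocount of 0.1, and in each library alone. Limits on coding length of 90% and 50% of the longest coding sequence, with Kdm5a left out, were added after seeing the data. Kmt2c over Kmt2d turned to −0.93 under both and Kdm7a over Phf8 to 0.53 under 90%. The H3K4 methyltransferases' share of the members' TPM, 14.7%, was 11.2% under 90% and 11.7% under 50%, and between 14.1% and 15.3% without 1 library. Under 90% and 50%, the H3K9 demethylases held 18.4% and 15.9% (13.9% over all transcripts), above the H3K4 methyltransferases under both. The H3K36 methyltransferases held 10.7% and 8.77% (6.66%), Kdm2a 2.00% and 1.64% (2.97%), and Dot1l 1.61% and 1.36% (2.16%). The H3K4 core subunits held 22.6% and 31.3% (27.6%), and the H4K20 methyltransferases 11.7% and 9.62% (11.3%). The number of members whose leading transcript took 50% or more on average was 20, with 20 and 21 in single libraries and 24 among coding transcripts only. Depth limits Kdm4d, on 6 and 5 counts, and transcripts on few counts.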
